A study of Homo sapiens with 3 samples.

Results

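The 4 array probes His1h, Asn1h, Asp1h and Tyr2h read histidine, asparagine, aspartate and tyrosine tRNAs, the family whose anticodons begin with a G that can be replaced by queuosine. They were chosen by their names in the spot tables, as 4 of the 41 human tRNA probes on the array. Earlier results of these data were known when they were chosen. The cells were MCF-10A, an established non-tumorigenic line of human breast epithelium, given siRNA against eIF3e, a subunit of a translation initiation factor, or control siRNA, both at 20 nM for 72 h. There were 3 two-colour ratios, from 2 knockdown RNAs in Cy3 and 3 control RNAs in Atto635. Ratios 1 and 2 set the first knockdown RNA against control cultures 1 and 2, and ratio 3 set the second knockdown RNA against control culture 3. No ratio had the dyes swapped. A separate array, named as the dye control, was taken to measure the dye balance of each probe. No source used here names its RNA, so the same RNA in both channels is an assumption. The level of eIF3e itself was not measured on these arrays, so the labels stand unchecked by the targeted gene.

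Queuosine is a modified guanosine at the wobble position of the anticodon, the base that pairs with the last letter of the codon. Human cells do not make its base, queuine. They take it up from diet, gut microbes or serum, and the enzyme formed by QTRT1 and QTRT2 exchanges it for the guanine in exactly these tRNAs. In the tRNAs for aspartate and tyrosine the queuosine is then joined to a sugar, mannose or galactose. The modification is known to influence how fast codons ending in C or U are read. The arrays captured the amount of tRNA that could be ligated at its 3' end, not its modification, and the labels do not settle whether total or charged tRNA was ligated. Ratios are read here as abundance.

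The RefSeq annotation of GRCh38.p14 lists 9 nuclear histidine tRNA genes, all with the anticodon GTG and all in 1 numbered sequence family. It lists 22 asparagine genes with GTT in 14 families, 13 aspartate genes with GTC in 3 families, and 13 tyrosine genes, 12 of them with GTA in 8 families and 1 with ATA. The tyrosine genes contain an intron, and their annotated length of 89 to 94 bases exceeds the 72 bases of the histidine and aspartate genes. Probe names give an amino acid and a number, so no source used here tells which members of a family each probe binds.

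His1h was higher in knockdown than in control, and it was the only probe of the 4 to pass the test. Its fold was 1.63 against the spiked standards and 1.36 once the dye control was subtracted. The standards, added in equal amounts, did not read alike. Their mean log2 ratios ran from -0.093 for E.c. Ala-5 (fold 0.938) to 0.34 for Yeast Phe-3 (fold 1.27). With the dye control subtracted they ran from -0.15 for E.c. Ala-5 (fold 0.904) to 0.32 for E.c. Lys-2 (fold 1.25). The SE given below for each probe was fitted on human probes alone and leaves this disagreement out. Asn1h and Tyr2h lay close to the middle of all human probes at folds of 1.17 and 1.18, and Asp1h lay near no change at 0.987. None of these 3 passed. The count of 1 in 4 stands beside a background of 9.76% of the 41 probes called higher on the standards' scale, which is 4 probes, and 2.44% called lower.

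His1h, the probe for the tRNA that decodes CAC and CAU, had log2 ratios of 0.69, 0.81 and 0.65 in ratios 1, 2 and 3. It was the highest of the 41 human probes in each of the 3. Ratios 1 and 2 used the same Cy3 measurement, so they were not independent. The limma estimate of His1h was 0.71 (SE 0.13, adjusted p = 3.64e-05, 95% interval 0.44 to 0.97, higher in 3 of 3 ratios). Adjusted p-values here are Benjamini-Hochberg values over the 41 probes, a call is an adjusted p under 0.05, and the SE pools the variance over all probes. The SD of His1h over its own 3 ratios was 0.086. Without ratio 3, and so without the second knockdown RNA, the estimate was 0.75 and not called (adjusted p = 0.0735). Loess normalization within each array also ended the call, at 0.43 (limma adjusted p = 0.114). Across the 41 probes the medians of the 3 ratios were 0.050, 0.26 and 0.28, so the distance of His1h from the middle probe was smaller in ratio 3 than in ratio 1.

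**Figure D1:**
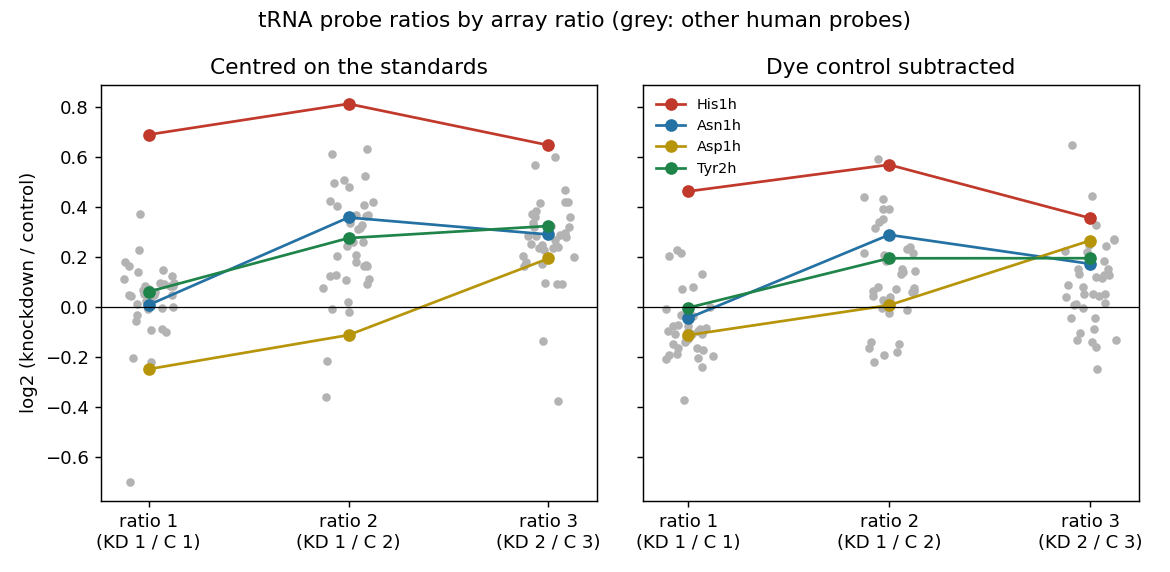
Log2 ratios of knockdown (KD) over control (C) for the 4 queuosine-family probes (coloured lines) and the other human probes (grey points) in each ratio, centred on the spiked standards (left) and with the dye control subtracted (right). His1h is the highest point of each ratio on the left, at 0.69, 0.81 and 0.65, while Asn1h and Tyr2h run through the middle of the grey points and Asp1h moves from the lower edge in ratio 1 to 0.19 in ratio 3.

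Asn1h, for the tRNA that reads AAC and AAU, had log2 ratios of 0.0083, 0.36 and 0.29. It was 29th, 15th and 18th from the top of the 41 probes, so it followed the pool as a whole. Its estimate was 0.23 (SE 0.13, limma adjusted p = 0.201, 95% interval -0.035 to 0.49). Tyr2h, for UAC and UAU, had log2 ratios of 0.061, 0.28 and 0.32 and an estimate of 0.23 (SE 0.13, limma adjusted p = 0.194, 95% interval -0.029 to 0.50). Both intervals include 0 and reach up to 0.49 and 0.50. Asn1h and Tyr2h were called higher when ratios 1 and 2 were averaged to 1 ratio (0.24 and 0.25, adjusted p = 0.0127 and 0.00973), a setting that called 28 of the 41 probes higher, and without ratio 1 (0.32 and 0.30, adjusted p = 5.43e-05 and 0.000150), where 31 were.

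Asp1h, for GAC and GAU, had log2 ratios of -0.25, -0.11 and 0.19. The 2 ratios that share the first knockdown RNA were below 0 and the ratio from the second knockdown RNA was above it. The estimate was -0.019 (SE 0.13, limma adjusted p = 0.884, 95% interval -0.28 to 0.24), and its SD over the 3 ratios, 0.23, was the largest of the 4 probes. It was 40th and 39th of the 41 probes in ratios 1 and 2, and 33rd in ratio 3. When the arrays were centred on the middle of the human probes and not on the standards, Asp1h was called lower, at -0.23 (limma adjusted p = 0.0183), where 9.76% of the probes were called lower and 9.76% higher.

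The step from ratio 1 to ratio 2 changes only the Atto635 values, since both use the same Cy3 measurement. In ratio 2 the spots of both channels need not pair, so this step also carries that mismatch. It amounted to 0.12 in log2 for His1h, 0.14 for Asp1h, 0.21 for Tyr2h and 0.35 for Asn1h, beside a median of 0.21 over the human probes. Ratios of channel medians, which need no pairing, went from 0.79 to 0.89 for His1h and from -0.21 to -0.079 for Asp1h. They went from -0.0055 to 0.23 for Tyr2h and from -0.0015 to 0.30 for Asn1h. The step from ratio 1 to ratio 3, which share no culture, was -0.042 for His1h, the lowest of the 41 probes. For Asp1h it was 0.44, the 3rd highest. Tyr2h, at 0.26, and Asn1h, at 0.28, moved with the pool, whose median step was 0.22. The range over all probes was -0.042 to 0.51.

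Differences between probes within one ratio do not depend on how an array is centred. Ratios 1 and 2 share their Cy3 measurement in these differences too. His1h exceeded Asn1h by 0.50 ± 0.17, Tyr2h by 0.50 ± 0.16 and Asp1h by 0.77 ± 0.28 in log2 (SD, n = 3 ratios, higher in 3 of 3 for each pair, exact two-sided sign-flip test p = 0.25, which is the smallest that 3 ratios allow). Adjusted over the 6 pairs the p of each was 0.30. Asn1h and Tyr2h differed by -0.0016 ± 0.073 (SD, n = 3, exact sign-flip p = 1). Asp1h was below Tyr2h by 0.31, 0.39 and 0.13 in the 3 ratios, and below Asn1h by 0.26, 0.47 and 0.096. The sign-flip test cannot give a p under 0.25 with 3 ratios, so it could call none of the 6 pairs.

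In Cy3, which carries the knockdown RNA, the median intensity of the His1h spots after subtraction of local background was 2299.5 in the first knockdown RNA and 1435 in the second. In Atto635, which carries the control RNA, it was 776.5, 630 and 366.5 in control cultures 1, 2 and 3. Asn1h had medians of 6317 and 4289.5 in Cy3 and 3835, 2726 and 1475.5 in Atto635. Tyr2h had 1872.5 and 1168 in Cy3 and 1127, 829 and 391 in Atto635. The Asp1h medians were 11603 and 11334.5 in Cy3 and 8150.5, 6565 and 4225 in Atto635. All 4 probes were dimmest in Atto635 on control culture 3, as was the median over all human spots, at 734 against 1605 and 1319. No pixel of an unflagged spot of the 4 probes was saturated on arrays 1 and 3 or on the dye control. These intensities are raw and serve to compare a probe with itself only.

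**Figure D2:**
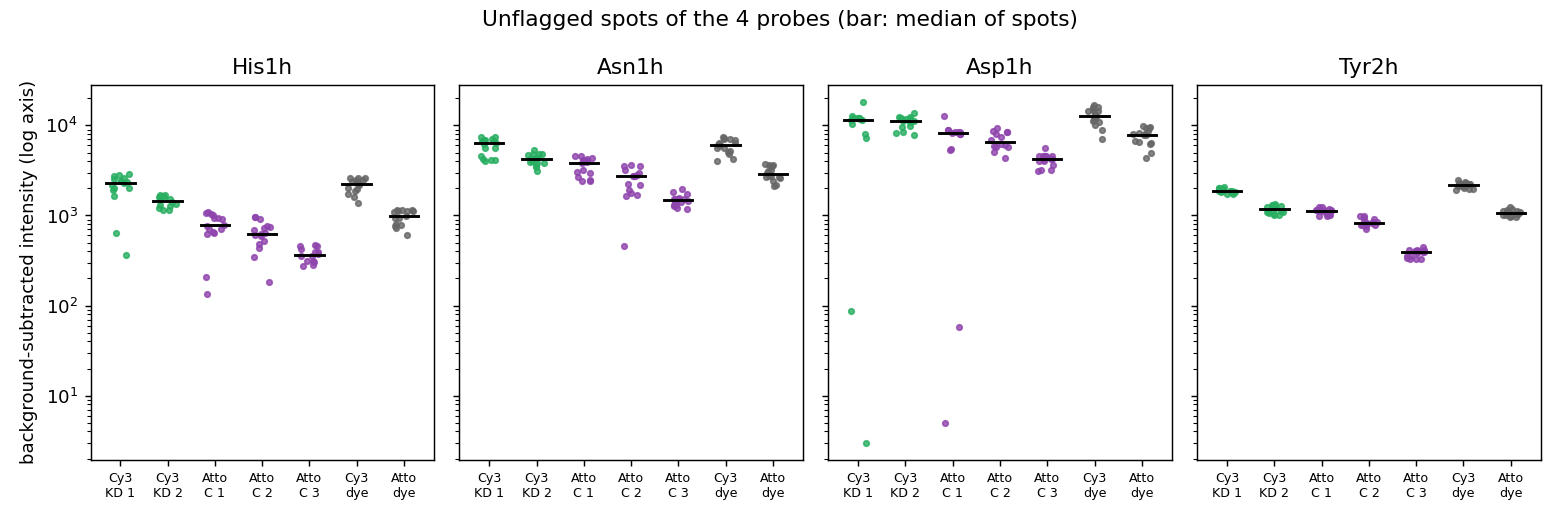
Background-subtracted intensity (log axis) of every unflagged spot of the 4 probes, by channel and RNA (KD, knockdown; C, control; dye, dye control array), with a bar at the median of the spots. For His1h the Cy3 medians of 2299.5 and 1435 lie above the Atto635 medians of 776.5, 630 and 366.5, and 2 spots of Asp1h in the first knockdown RNA fall far below the rest.

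Set against the 4 spiked standards in the same channel, the level of His1h was -1.97 and -2.68 in the knockdown RNAs and -2.77, -2.86 and -3.27 in the control RNAs, in log2 below the mean of the standards. The lowest knockdown level was thus 0.088 above the highest control level, and the groups did not overlap. Of the 41 human probes 2, or 4.88%, had all knockdown levels above all control levels, His1h and Ile1h. For Asn1h the knockdown levels of -0.54 and -1.13 lay among the control levels of -0.53, -0.83 and -1.39. Tyr2h overlapped in the same way, with -2.26 and -2.96 against -2.26, -2.49 and -3.18. Asp1h, at 0.34 and 0.26 in the knockdown RNAs, lay within its control range of 0.097 to 0.55.

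The spread within a channel was large beside these differences: the knockdown levels of His1h differed by 0.70 and its control levels by 0.50. Over all human probes the median step from array 1 to array 3 was -0.56 in Cy3 and -0.75 in Atto635, so most of that spread was common to the pool. When the dye control's own difference between channels, 0.26 for His1h, was taken off, the knockdown and control levels of His1h overlapped by 0.17. The same correction left 0 of the 41 probes without overlap. With each channel centred on the median of the standards in place of their mean, the gap of His1h was 0.35 before the correction, with 3 of the 41 probes not overlapping, and -0.058 after it.

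**Figure D3:**
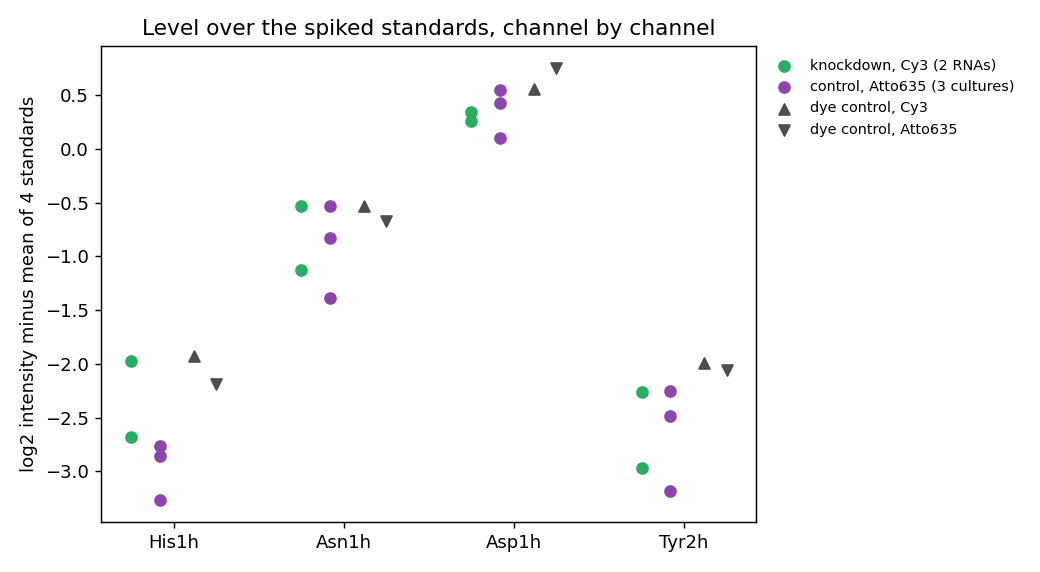
Level of each probe over the mean of the 4 spiked standards in the same channel, in log2, for 2 knockdown RNAs in Cy3 (green), 3 control cultures in Atto635 (purple) and both channels of the dye control array (triangles). The lowest green point of His1h lies 0.088 above its highest purple point, and the green and purple points of the other 3 probes overlap.

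On the dye control array, where 41 human probes had a median log2 ratio of 0.11 and a range of -0.60 to 0.30, His1h was at 0.22. Asn1h was at 0.043, Tyr2h at 0.055 and Asp1h at -0.14. The order of the family on this array was therefore that of the knockdown ratios at both ends, with His1h highest and Asp1h lowest. With the dye control subtracted and the standards centred again, His1h had log2 ratios of 0.46, 0.57 and 0.36 and ranked 1st, 2nd and 3rd of the human probes. Its estimate was 0.45 (SE 0.12, limma adjusted p = 0.0191, 95% interval 0.21 to 0.69, higher in 3 of 3 ratios), and it was one of the 4.88% of probes called higher on that scale. That SE takes the dye control as free of error. Centring the human probes on their median as well put His1h at 0.39 (SE 0.077, limma adjusted p = 0.0124), where 7.32% of the probes were called higher. Of 20 alternatives for the dye-corrected estimate, 12 kept the call. Among the others, it ended when either E.c. Ala-5 or E.c. Tyr-2 was left out of the standards, at 0.42 with limma adjusted p-values of 0.170 and 0.192. On this dye-corrected scale it also ended without ratio 1 (0.46, limma adjusted p = 0.0617) and without ratio 3 (0.52, limma adjusted p = 0.812).

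After the same subtraction Asn1h was at -0.044, 0.29 and 0.17, with an estimate of 0.14 (SE 0.12, limma adjusted p = 0.660, 95% interval -0.10 to 0.39). Tyr2h was at -0.0026, 0.19 and 0.20 and had an estimate of 0.14 (SE 0.12, adjusted p = 0.660, 95% interval -0.10 to 0.38). Asp1h turned from -0.019 to 0.084 (SE 0.12, adjusted p = 0.880, 95% interval -0.16 to 0.33), with ratios of -0.11, 0.0076 and 0.27. In ratio 3 it then ranked 7th of the 41 probes, against 27th and 32nd in ratios 1 and 2. The distance of His1h above Asp1h shrank from 0.77 to 0.41 (exact sign-flip p = 0.25, adjusted over the 6 pairs 0.50), and in ratio 3 alone from 0.45 to 0.090.

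**Figure D4:**
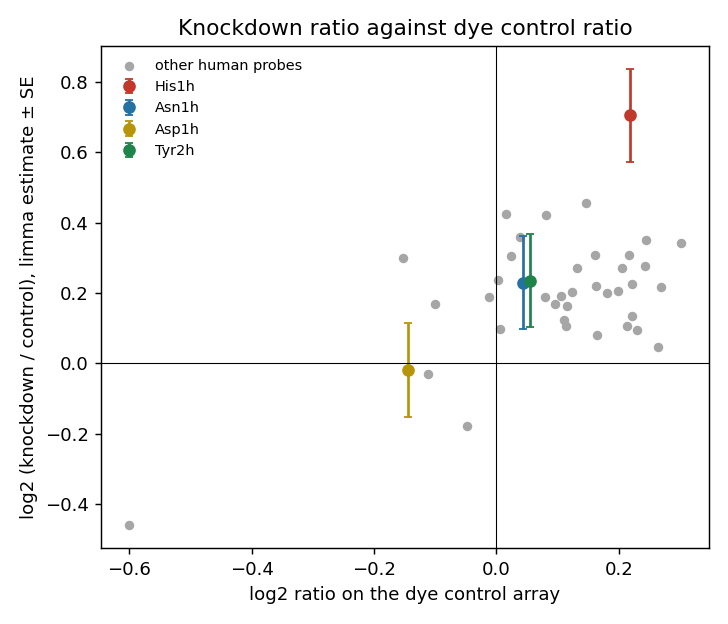
Limma estimate of the log2 ratio of knockdown over control, centred on the standards (vertical axis; bars on the 4 members are the SE), against the log2 ratio of the same probe on the dye control array (horizontal axis). His1h stands above the human probes with a similar dye control ratio, at 0.71 against 0.22, while Asp1h lies low on both axes at -0.019 and -0.14.

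In the authors' deposited table, whose linear ratios are divided by the dye control, His1h was at 1.46, 1.56 and 1.42. The authors' deposited table gave Asn1h as 1.02, 1.23 and 1.18, Tyr2h as 1.05, 1.16 and 1.25, and Asp1h as 0.997, 1.11 and 1.25. Over the 40 human probes of the authors' deposited table the medians were 0.985, 1.11 and 1.14, and His1h ranked 1st, 3rd and 3rd. The authors' centring of these values is not stated in any source used here.

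The spots of one probe are repeats of one hybridisation and not replicates of the knockdown. On array 1 all 16 spots of His1h had a log2 ratio between 0.48 and 0.88, and on array 3 the 14 unflagged spots lay between 0.55 and 0.73. Each of the 8 printed blocks had a His1h median above the median human probe on both arrays, from 0.59 to 0.86 on array 1 and from 0.57 to 0.72 on array 3. This held although the raw Cy3 intensity of His1h ran from 365 to 2875 on array 1. The Asp1h spots of array 3 were as tight, from 0.041 to 0.26, and all 16 lay below the median human probe. Of the Tyr2h spots, 9 of 16 on array 1 and 14 of 16 on array 3 were above it, and for Asn1h 5 and 10 of 16. In ratio 2, 13 of 16 His1h spots and 7 of 8 block medians of His1h were above the median human probe. The His1h spots there ran from -0.77 to 2.22.

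Ratio 2 differed from the other ratios at the level of spots. Its table repeated 56 of the 57 columns of ratio 1, and only the background-subtracted Atto635 intensity differed, so each spot's Cy3 value from array 1 was divided by an Atto635 value that need not come from the same spot. Across the 16 spots of His1h, which share printing and hybridisation, the log2 intensities of both channels correlated with r = 0.992 in ratio 1 and 0.503 in ratio 2. For Asn1h r was 0.984 and -0.154 over 16 spots. For Tyr2h it was 0.653 and 0.0647. Asp1h gave 0.998 and -0.326 over 14 spots. Among them were 2 dim spots with Cy3 intensities of 87 and 3. Their Atto635 values were 58 and 5 in ratio 1, and 8096 and 8477 in ratio 2. Both values of r for Asp1h include these spots, and r without them was not computed.

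The SD of the spot ratios in ratio 2 was 0.68 for His1h and 0.82 for Asn1h, against 0.11 and 0.060 in ratio 1. For Asp1h it was 2.72, since 2 spots with a Cy3 intensity under 100, the lowest at 3, carried no flag and stood against Atto635 values of 8096 and 8477. The lowest log2 ratio of these spots was -8.16. The median over spots, used for the estimates, is little moved by such spots, whereas their mean put Asp1h at -1.05 in ratio 2. With the ratio taken between the medians of each channel, which needs no pairing of spots, ratio 2 was 0.89 for His1h, 0.30 for Asn1h, -0.079 for Asp1h and 0.23 for Tyr2h. The estimate of Asp1h then changed sign, to 0.028 (limma adjusted p = 0.848).

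The probes nearest in their 3 ratios were named by the smallest mean absolute difference over the 3 ratios. On the standards' scale Tyr2h was nearest to Arg4h, an arginine probe (0.013 in log2), and to Gln1h (0.044). Asn1h was nearest to Lys3h (0.026) and Arg2h (0.039). Asp1h was nearest to Glu1h, a glutamate probe (0.074), followed by Lys1h at 0.14. His1h had no near neighbour: the closest were the isoleucine probe Ile1h at 0.26 and the arginine probe Arg3h at 0.29. On the dye-corrected scale the nearest were Arg3h (0.10) and Val4h (0.18) for His1h, Gly1h (0.036) and Arg2h (0.050) for Asn1h, Lys2h (0.064) and Glu1h (0.067) for Asp1h, and Arg2h (0.049) and Ser1h (0.051) for Tyr2h.

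The codon boxes of histidine, asparagine and aspartate are shared with glutamine, lysine and glutamate, whose tRNAs read the codons ending in A or G. Of the 7 probes for these partners limma called 0 (2 before adjustment, Gln1h and Glu2h, at a p under 0.05), with a median log2 ratio of 0.19 beside 0.23 for the queuosine family and 0.21 over all 41 human probes. Gln1h was at 0.27 (adjusted p = 0.119), Glu2h at 0.31 (adjusted p = 0.0881) and Glu1h at -0.029 (adjusted p = 0.846). The 4 lysine probes ranged from 0.098 for Lys1h to 0.21 for Lys3h. On the dye-corrected scale limma again called 0 of the 7 (0 at an unadjusted p under 0.05), and the medians were 0.040 for the partners, 0.14 for the queuosine family and 0.046 over all probes.

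Phenylalanine and cysteine tRNAs also begin their anticodon with G and read codons ending in C or U, but carry no queuosine. This list was set by these 2 amino acids, and the probes for other amino acids were not sorted by anticodon. Phe1h was at 0.20 (SE 0.13, limma adjusted p = 0.228) and Cys1h at 0.047 (SE 0.13, adjusted p = 0.760), a median of 0.12 with 0 of 2 called and 0 at an unadjusted p under 0.05. After dye correction Phe1h was at 0.036 (adjusted p = 0.949) and Cys1h at -0.26 (adjusted p = 0.216), again with 0 called and with Cys1h alone at an unadjusted p under 0.05. A difference between these lists was not tested.

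**Figure D5:**
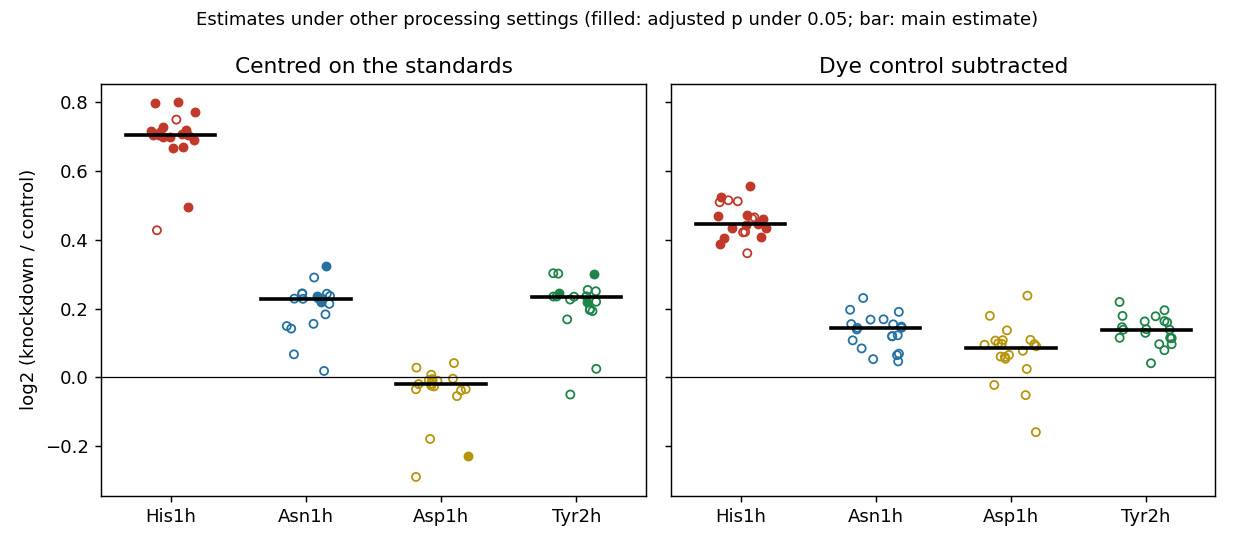
Log2 ratio of knockdown over control for the 4 probes under each alternative processing setting (points; filled where the adjusted p was under 0.05) and under the main setting (bar), centred on the standards (left) or with the dye control subtracted (right). His1h stays between 0.43 and 0.80 on the left and between 0.36 and 0.56 on the right, while Asp1h falls on both sides of 0.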

How the data were processed

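The authors deposited a scanner table per ratio with the intensity of 800 spots in both channels, and one for the dye control, per the file headers. Each human probe has 16 spots and each of the 4 standards 24. They also deposited a linear ratio per probe. The percent of saturated pixels and the pixel regression score were read as deposited. Per the labels' protocols, 4 pmol of each standard was added to 2 µg of RNA. Flagged spots (24 on array 1, 46 on array 3, 19 on the dye control) were left out. Ratio 2 carried the flags of array 1, so its own Atto635 values had no flags to filter them. The normexp correction with an offset of 50 was applied to background-subtracted means (limma 3.58.1, R 4.3.3). A probe's value is the median over spots of log2 Cy3 over Atto635, less the median of the standards. lmFit and eBayes were run over 41 human probes, with knockdown RNA as a block and a preset correlation of 0.5, since 3 arrays cannot give one. The limma p-values rest on a variance between these few ratios pooled over the probes, and the number of ratios limits precision. On the standards' scale limma gave the pooled variance full weight (infinite prior degrees of freedom). Every probe there had the same SE, 0.13, whatever its own spread. With the dye control subtracted the prior degrees of freedom were 59.3. The members and lists were chosen with earlier results of these data known. Probes named are the 4 members, the partner and G-anticodon lists, the 2 nearest probes per member and the standards. The fit was also run on simulated data, and no result reported here rests on that run.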

Additional observations from a re-analysis of the deposited data

Results flagged for a closer look

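Spots printed with water alone, which enter no comparison, carried signal. Their median Cy3 intensity by mean pixels was 4207.5 on array 1 and 11207 on array 3, brighter than the medians of His1h, Asn1h and Tyr2h on array 3 and of His1h and Tyr2h on array 1. By median pixels it was 33 and 290, while the 4 members had median-pixel medians of at least 1226.5 in Cy3 on both arrays. In Atto635 the water spots had medians by mean pixels of 2703 on array 1, 2971 in ratio 2 and 4875.5 on array 3. On array 3 this exceeded the Atto635 medians of all 4 members, and on array 1 those of His1h and Tyr2h. On the dye control water had 5925 in Cy3 and 2927 in Atto635, above the medians of His1h and Tyr2h in both channels. No median-pixel value of water in Atto635 was computed. The part of the water signal in the members' ratios was not tested. With median pixels on ratios 1 and 3, His1h was at 0.67 (limma adjusted p = 0.00101) and at 0.40 (adjusted p = 0.0367) with the dye control subtracted.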

How the results depend on the processing

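No paired analysis was possible because the ratios form 1 group, in which each ratio already sets knockdown against control. In ratio 2 the spots of both channels need not pair. Each log2 ratio was computed under 19 alternatives, or 20 with the dye control subtracted, each changing 1 choice, apart from the deposited ratios and 2 settings limited to ratios 1 and 3. His1h kept its direction in all of them, at 0.43 to 0.80 on the standards' scale and at 0.36 to 0.56 after dye subtraction. Its call ended with loess (0.43, limma adjusted p = 0.114), and between 0.67 and 0.75 over the ratios left out in turn it ended without ratio 3. After dye subtraction 12 of 20 alternatives kept the call. It ended with plain background subtraction (0.51), a normexp offset of 0 (0.51), without E.c. Ala-5 or E.c. Tyr-2 in the scale (0.42 each), with loess (0.36), with the mean of spots (0.47), and in leaving out ratios (0.41 to 0.52) without ratio 1 or 3.

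Asn1h kept its direction throughout. It was called higher with no replicate block, that is with the ratios as independent (0.22), and with ratios 1 and 2 averaged (0.24). Over the ratios left out it lay at 0.15 to 0.32, or 0.064 to 0.23 after dye subtraction. Tyr2h was called under the same settings (0.22 and 0.25), ran from 0.17 to 0.30 and from 0.096 to 0.20 over the ratios left out, and turned to -0.050 with loess. Asp1h was called lower when centred on the median human probe (-0.23). It changed sign with the ratio of channel medians (0.028), with ratios 1 and 2 averaged (0.0073) and over the ratios left out (-0.18 to 0.041). After dye subtraction it changed sign with loess (-0.022), with the mean of spots (-0.16) and over the ratios left out (-0.052 to 0.14). The difference of Asn1h and Tyr2h, near 0, changed sign with loess (0.13), the mean of spots (0.047), channel medians (0.038), the dye control subtracted (0.0098) and over the ratios left out (-0.043 to 0.024). That of Asp1h and Tyr2h did so with loess (0.011). The other 4 differences kept their direction in all 14 alternatives. The cause of these changes was not tested.

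The main count was 4 human probes called higher and 1 lower. It became 1 and 0 without background correction on ratios 1 and 3, 0 lower with plain subtraction, 7 and 0 with an offset of 0, 4 lower when centred on the median human probe, 11 higher without E.c. Lys-2, 10 higher without Yeast Phe-3, 0 and 0 with loess, 1 and 0 with the mean of spots, 1 higher with median pixels on ratios 1 and 3, 20 higher with no replicate block and 28 higher with ratios 1 and 2 averaged. Leaving out ratios gave 0 to 31 higher and 0 to 2 lower. The dye-corrected count, 2 higher and 0 lower, became 0 higher with plain subtraction, an offset of 0, the mean of spots, or without E.c. Ala-5 or E.c. Tyr-2. It was 1 higher with channel medians, flagged spots kept or median pixels, 1 and 1 with loess, 1 lower with median centring, 8 and 1 with no replicate block, 10 and 3 with the averaged ratios and 6 higher in the authors' deposited ratios. Leaving out ratios gave 0 to 2 higher. Ratio 2 has no median-pixel or uncorrected Atto635 column of its own, which is why those 2 settings use ratios 1 and 3.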
